A study of Mus musculus with 8 samples.

Results

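Circadian clock genes are the 10 genes Arntl, Clock, Npas2, Per1, Per2, Per3, Cry1, Cry2, Dbp and Nr1d1, chosen by name, and each had 1 row among the 54532 genes of the deposited tables. All 10 were among the 17004 genes kept by the filter on low counts. They were measured by RNA sequencing in 8 libraries of mouse retina, 4 labelled sIVs (small intracellular vesicles) and 4 labelled PBS, taken here as the control, numbered 1, 3, 4 and 5 in each group. Strain, genotype, age, dose, route, time after treatment, injury model, light schedule and time of day at collection were not given in the sources used here. The labels call the libraries biosamples without saying whether each came from its own animal, so p-values measure the spread between these samples, which may be technical. The question put to these genes was whether the libraries, or libraries that carry the same number, differed in clock phase.

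The mammalian clock is a feedback loop of transcription. BMAL1, the product of Arntl, pairs with CLOCK or its relative NPAS2 and binds E-box sequences, which switches on the Per and Cry genes, Dbp and Nr1d1. PER and CRY proteins then repress that pair, while REV-ERBα, the product of Nr1d1, represses Arntl through a second element, the RORE. In tissues with a running clock, transcripts of Dbp, Nr1d1 and Per3 are therefore highest when those of Arntl, Npas2 and Clock are low, with Per1 and Per2 peaking later than Nr1d1. The retina has its own clock, spread over several cell types, and its outputs include dopamine and melatonin signalling.

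RefSeq promoter windows, each of 300 bases with 250 before and 50 after a transcript start (GRCm38.p6, the assembly of mm10), were at hand for 9 of the 10 genes. These genes had 13 windows, and some had more than 1. All were searched on both strands for the E-box CACGTG, the related E'-box CACGTT and the D-box TTATGNAA, to which DBP binds. The RORE was also searched, spelled here as the half-site AGGTNA directly after the flank AAAGT, and no matches overlapped. For each of 5 genes 1 window is shown, picked for its matches. The other Per1 window held 0 matches and the other Arntl window 1 RORE, and they are not shown. Capitals mark the matches, and a match is a description of the letters, not evidence of binding.
Per1, chr11:69098699-69098998, plus strand, E-box and D-box: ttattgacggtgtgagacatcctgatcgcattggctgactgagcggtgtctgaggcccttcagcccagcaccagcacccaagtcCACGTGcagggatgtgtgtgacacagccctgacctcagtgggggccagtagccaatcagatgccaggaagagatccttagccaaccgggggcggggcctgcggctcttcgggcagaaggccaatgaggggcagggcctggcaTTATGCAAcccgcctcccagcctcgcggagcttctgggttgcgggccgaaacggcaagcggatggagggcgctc
Per3, chr4:151044616-151044915, minus strand, D-box at 2 places: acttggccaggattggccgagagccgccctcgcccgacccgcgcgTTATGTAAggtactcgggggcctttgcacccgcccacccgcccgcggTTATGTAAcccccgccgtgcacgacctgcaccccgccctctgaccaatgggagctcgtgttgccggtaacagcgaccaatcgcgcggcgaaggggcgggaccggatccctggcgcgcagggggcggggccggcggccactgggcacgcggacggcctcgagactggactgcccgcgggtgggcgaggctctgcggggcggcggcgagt
Cry1, chr10:85185005-85185304, minus strand, E'-box and E-box: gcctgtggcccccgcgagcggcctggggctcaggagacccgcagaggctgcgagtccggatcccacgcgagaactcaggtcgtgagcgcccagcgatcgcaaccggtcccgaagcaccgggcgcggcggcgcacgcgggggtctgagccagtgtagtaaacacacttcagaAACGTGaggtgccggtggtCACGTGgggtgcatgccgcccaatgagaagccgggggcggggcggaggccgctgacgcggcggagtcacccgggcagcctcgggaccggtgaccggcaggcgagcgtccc
Nr1d1, chr11:98775328-98775627, minus strand, E'-box: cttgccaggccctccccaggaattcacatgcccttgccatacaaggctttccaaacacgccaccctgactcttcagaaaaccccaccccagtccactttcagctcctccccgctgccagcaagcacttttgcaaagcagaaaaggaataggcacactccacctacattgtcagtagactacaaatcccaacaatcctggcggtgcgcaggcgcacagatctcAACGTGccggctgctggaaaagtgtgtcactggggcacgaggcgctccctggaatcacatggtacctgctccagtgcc
Arntl, chr7:113207261-113207560, plus strand, RORE at 2 places: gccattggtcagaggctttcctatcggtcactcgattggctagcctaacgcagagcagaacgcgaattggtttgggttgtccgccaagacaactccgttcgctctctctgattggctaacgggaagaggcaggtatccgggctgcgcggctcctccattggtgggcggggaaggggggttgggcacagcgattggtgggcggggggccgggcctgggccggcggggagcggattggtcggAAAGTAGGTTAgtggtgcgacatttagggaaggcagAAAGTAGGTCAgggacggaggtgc

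Of all 32851 promoter windows, 7.15% held the E-box, 4.68% the E'-box, 3.38% the D-box and 0.0609% the RORE as spelled here. The RORE has the longest spelling of the 4, and a longer string is matched less often, so these shares do not rank the elements by rarity. The Cry2 window also held an E'-box, and the windows of Dbp, Clock and Npas2 held none of the 4.

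The clock genes stood at levels between about 1 and 62 FPKM (fragments scaled to gene length and library total, the scale on which levels of different genes are compared here), and their order was led by outputs of the loop. Nr1d1 averaged 61.8 ± 4.10 FPKM and Dbp, a transcription factor gene under E-box control, 57.1 ± 14.04 FPKM (SD, n = 8 each). Nr1d1 was above Dbp in 6 of 8 libraries, and the ranges of the pair overlapped. Next came the repressors Cry2 at 26.3 ± 0.744, Per1 at 19.2 ± 2.25 and Cry1 at 18.4 ± 2.10 FPKM (SD, n = 8 each).

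Cry2 was above Per1 in all 8 libraries, whereas Per1 and Cry1 overlapped, with Per1 higher in 6. Per3 at 13.8 ± 1.86, the activator genes Arntl at 12.2 ± 1.34 and Clock at 11.6 ± 2.38 FPKM followed, and these neighbours overlapped in turn. Per2 at 5.03 ± 0.880 and Npas2 at 1.02 ± 0.165 FPKM were lowest, each below the gene above it in 8 of 8 libraries (SD, n = 8 each). The lowest raw count behind any value was 56, for Npas2 in sIVs replicate 4, and the highest 4262, for Dbp in the same library.

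**Figure D1:**
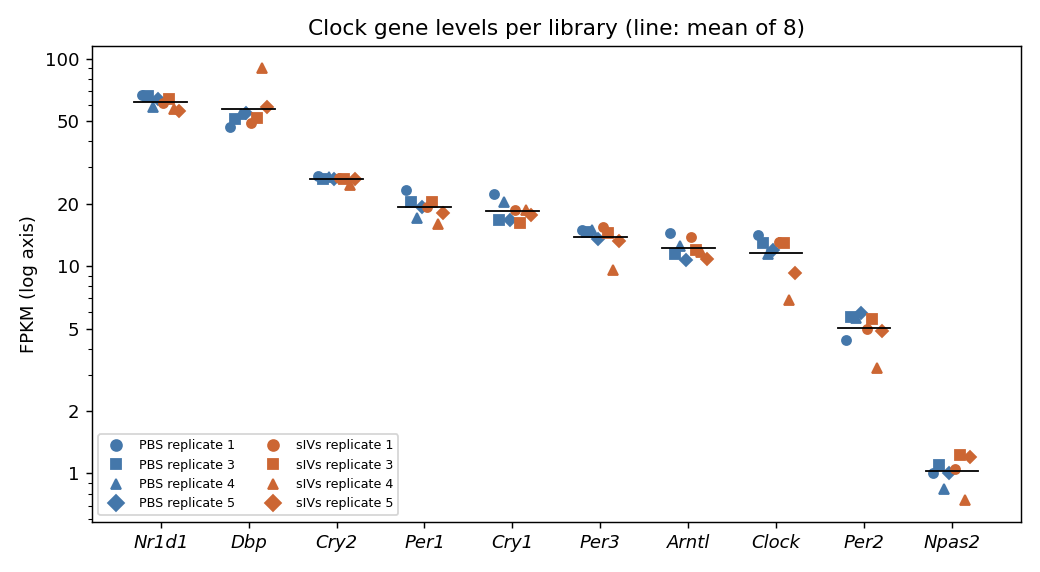
FPKM of the 10 clock genes (log axis) in each of the 8 libraries; colour gives the group, marker shape the replicate number and the line the mean of 8. Nr1d1 and Dbp lead at 61.8 and 57.1 FPKM, and sIVs replicate 4 stands apart upward in Dbp and downward in Clock, Per2 and Per3.

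The libraries held 13803958 to 16622259 counts, and the rod gene Gnat1, which encodes a transducin subunit, was abundant in each, as in retina. sIVs replicate 4 stood apart in 3 measures. Its 10 pigment epithelium markers summed to 423 CPM (counts scaled to the normalized library size), against 8.77 to 70.3 CPM in the other 7 libraries, with Rpe65 at 60.2 CPM against at most 4.13 CPM. Rgr and Ttr, at 153 and 150 CPM, were the largest parts of that sum. Tyrp1, Pmel, Tyr and Best1 were higher in PBS replicate 5, and the rest of the list was highest in sIVs replicate 4. The 12 reactive gliosis markers of that library summed to 2102 CPM, against 318 CPM in PBS replicate 1, the lowest, and at most 1441 CPM elsewhere. Mt1 and Vim, at 591 and 465 CPM, were the largest parts of the sum. Gfap, Stat3, Socs3 and Fgf2 were higher in PBS replicate 3 (Gfap 121 against 102 CPM, Fgf2 162 against 78.6 CPM). The rest of that list was highest in sIVs replicate 4. Its long genes were low: genes with a listed length of 7064 bases or more had a median deviation of -0.45 and those of at most 1980 bases a median of 0.56 (log2 CPM, from the mean of 8 libraries), while in the other 7 libraries these medians lay between -0.06 and 0.12 and between -0.11 and 0.05.

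For the activators of the loop, no difference between sIVs and PBS retinas passed the test. Arntl stood at 111, 87.7, 95.9 and 81.8 CPM in PBS replicates 1, 3, 4 and 5 and at 106, 92.1, 90.8 and 83.9 CPM in sIVs replicates 1, 3, 4 and 5. Both libraries numbered 1 were highest and both numbered 5 lowest, and the groups overlapped throughout. The log2 difference, sIVs minus PBS, was -0.01 ± 0.12 (SE; edgeR adjusted p = 0.977), with a 95% interval from -0.29 to 0.26.

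Clock, which encodes the partner of BMAL1, stood at 197, 180, 160 and 166 CPM in the PBS libraries and at 182, 181, 96.5 and 131 CPM in the sIVs libraries, in the same order of replicates. Replicates 4 and 5 of the sIVs group were lowest, and the other 2 lay within the PBS range. The log2 difference was -0.25 ± 0.20 (SE; 95% interval -0.70 to 0.19; edgeR adjusted p = 0.810), and -0.10 without sIVs replicate 4. Npas2, the CLOCK relative, was the least abundant, at 4.10 to 5.38 CPM in PBS and 3.67 to 5.97 CPM in sIVs libraries (log2 difference 0.10 ± 0.21 SE; 0.23 without sIVs replicate 4).

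Among the repressors, Cry2 was nearly constant. It stood at 176, 169, 172 and 169 CPM in PBS and 172, 170, 161 and 170 CPM in sIVs libraries (log2 difference -0.03 ± 0.08 SE; 95% interval -0.21 to 0.16; edgeR adjusted p = 0.915). The highest library was 1.09-fold above the lowest. Its SD of log2 CPM over the 8 libraries, 0.037, was at percentile 0.106 of all genes tested, so few genes varied as little.

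Cry1 stood at 75.7, 56.6, 69.3 and 56.3 CPM in PBS and 63.5, 54.97, 64.0 and 60.6 CPM in sIVs libraries. The log2 difference was -0.09 ± 0.12 (SE), with PBS replicate 1 highest and sIVs replicate 3 lowest, and -0.004 without PBS replicate 1. Per1, a Period gene that also answers to light and to glucocorticoids, stood at 133, 116, 98.3 and 110 CPM in PBS and 112, 116, 92.3 and 104 CPM in sIVs libraries (log2 difference -0.11 ± 0.12 SE; -0.05 without sIVs replicate 4 and -0.03 without PBS replicate 1).

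For Per2 and Per3 the difference in group means shrank without sIVs replicate 4, but that of Per2 grew without PBS replicate 1. Per2 stood at 26.3, 33.7, 33.5 and 35.1 CPM in PBS and 29.8, 33.2, 19.5 and 29.3 CPM in sIVs libraries, and Per3 at 146, 142, 146 and 132 CPM in PBS and 152, 141, 94.9 and 130 CPM in sIVs libraries. The lowest value of each was that of sIVs replicate 4. Their log2 differences were -0.20 ± 0.17 and -0.13 ± 0.14 (SE), and without that library -0.07 and -0.004. Without PBS replicate 1 they were -0.29 and -0.115.

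Of the outputs, Dbp was high in a single library. It stood at 143, 155, 165 and 166 CPM in PBS and 150, 158, 279 and 180 CPM in sIVs libraries, so that the sIVs group had the 2 highest libraries and otherwise overlapped with PBS. The log2 difference was 0.29 ± 0.19 (SE; 95% interval -0.15 to 0.72; edgeR adjusted p = 0.810), and 0.05 without sIVs replicate 4. In size it was the largest of the 10 genes with all 8 libraries. Clock was larger under the replicate block (-0.29 against 0.24) and with limma on log2(FPKM + 1) and log2(FPKM + 0.1) (-0.28 and -0.30). Per2 was larger without PBS replicate 1 (-0.29 against 0.24). Npas2 was larger without sIVs replicate 4 (0.23), with limma-voom sample weights (0.22) and without PBS replicate 1 and sIVs replicate 4 (0.25). Nr1d1, the REV-ERBα gene, was not high in sIVs replicate 4. It stood at 209, 207, 183 and 200 CPM in PBS and 193, 202, 181 and 177 CPM in sIVs libraries, with sIVs replicate 5 lowest (log2 difference -0.09 ± 0.09 SE; 95% interval -0.30 to 0.12).

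In edgeR's quasi-likelihood test, 0 of the 10 clock genes passed an adjusted p of 0.05, as did 0% of all 17004 genes, and 0 of the 10 had an unadjusted p under 0.05, against 1.5% of all genes. DESeq2 and limma-voom with sample weights likewise called 0 genes. The groups did not overlap for 0 of the 10, against 2.01% of all genes. The median log2 difference was -0.09 over the clock genes and 0.01 over all genes tested, with 8 of 10 clock genes on the negative side and 51.3% of all genes on the positive side. The count on the negative side was also 8 of 10 without sIVs replicate 4 alone, under the replicate block and by DESeq2, and 7 of 10 without PBS replicate 1 alone. Without both PBS replicate 1 and sIVs replicate 4 it was 4 of 10, and with the length trend removed 5 of 10.

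**Figure D2:**
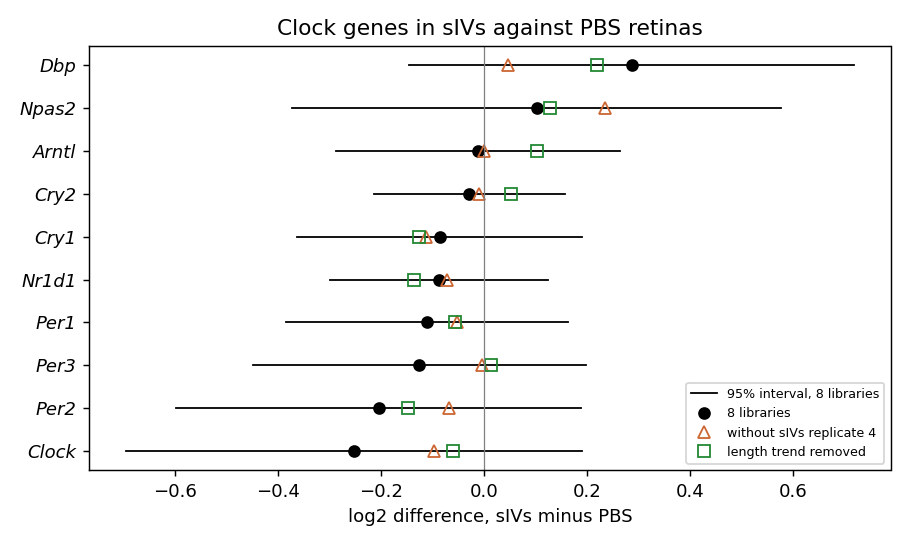
Log2 difference, sIVs minus PBS, of the 10 clock genes: filled points and lines give the edgeR estimate and its 95% interval from 8 libraries, open triangles the estimate without sIVs replicate 4 and open squares the estimate with the trend on gene length removed. All 10 intervals include 0, and Dbp moves from 0.29 to 0.05 and Clock from -0.25 to -0.10 without that library.

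The spread of the clock genes between libraries was modest. Clock, Dbp and Per2 varied most, with an SD of log2 CPM of 0.34, 0.30 and 0.28 over the 8 libraries, against a median of 0.30 over all genes tested. Without sIVs replicate 4 the SDs of Clock, Dbp and Per2 were 0.19, 0.11 and 0.15 and the median 0.19, and Npas2 at 0.18, Cry1 at 0.17 and Arntl at 0.17 then exceeded Dbp and Per2. The gene-wise biological coefficient of variation exceeded the value fitted for genes of the same abundance only for Clock (0.217 against 0.197) and Dbp (0.210 against 0.197). Without sIVs replicate 4, Clock alone was above it (0.135 against 0.126), Dbp was at 0.0772 and Per3 at 0.0568. Nr1d1, Arntl, Cry1 and Per1 had an SD of 0.09, 0.15, 0.16 and 0.16, at the 4.41st to 19.5th percentile of all genes.

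sIVs replicate 4 was the highest or lowest of the 8 libraries for 7 of the 10 clock genes, lowest for 6 and highest for Dbp. The same held for 71% of all genes tested, so the count is near the background. In that library 4 of 10 clock genes lay at least 0.5 (log2 CPM) from the median library, against 47.5% of all genes. They were Dbp at 0.79, Clock at -0.84, Per2 at -0.68 and Per3 at -0.58. Dbp and Per3, which peak close together in a running clock, lay on opposite sides, but Per3 was at -0.03 with the length trend removed. Whether phase had a part in these values was not tested.

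Listed length followed these values in part. Clock, the longest at 13727 bases, was lowest and Dbp, the shortest at 2993 bases, highest. Nr1d1 and Cry1, at 3077 and 3340 bases, lay at -0.12 and 0.04, however, and Arntl, at 7523 bases, at -0.01. Per2, at 5856 bases, lay below the longer Per3 at 9608 bases. With the trend on length removed from each library, a correction chosen after seeing the data, the deviations of Clock and Per3 in sIVs replicate 4 became -0.09 and -0.03. Dbp remained at 0.66, Per2 at -0.46 and Npas2 at -0.37, and Arntl moved from -0.01 to 0.33. PBS replicate 1 was the highest or lowest library for 7 of the 10 genes, against 35.5% of all genes, and the highest for 6, with Cry1 at 0.29, Arntl at 0.27 and Per1 at 0.27 above the median library.

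**Figure D3:**
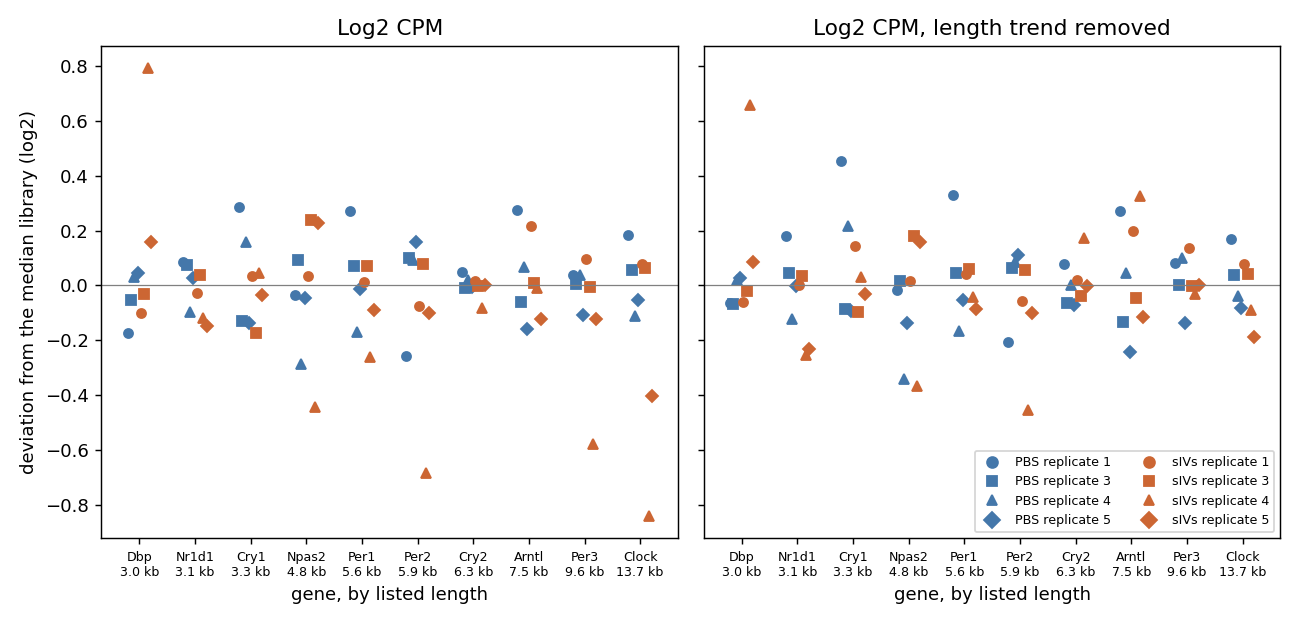
Deviation of each library from the median library (log2 CPM) for the 10 clock genes in order of listed length, as measured (left) and with each library's trend on length removed (right). Clock and Per3 in sIVs replicate 4 move from -0.84 and -0.58 to -0.09 and -0.03, while Dbp stays at 0.66.

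A phase index was formed per library as the mean log2 CPM of Dbp, Nr1d1 and Per3 minus that of Arntl, Npas2 and Clock, and is given as the deviation from the median library, as a description with no test. It was -0.18, -0.04, 0.08 and 0.05 in PBS replicates 1, 3, 4 and 5 and -0.14, -0.13, 0.44 and 0.04 in sIVs replicates 1, 3, 4 and 5. Both libraries numbered 1 were lowest, and sIVs replicate 4 lay above all others. The range over the libraries was 0.62, and 0.26 without sIVs replicate 4.

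The range rested mainly on Dbp and Clock. With Dbp left out of the index the range was 0.17, with Clock left out 0.39 and with the trend on length removed 0.25. The mean index was -0.02 in PBS and 0.05 in sIVs libraries, a difference of 0.08, which is less than the pooled SD of 0.209, and it was -0.05 without sIVs replicate 4.

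A second index set Per1 and Per2 against the same 3 activators. It was -0.12, 0.07, 0.08 and 0.17 in PBS replicates 1, 3, 4 and 5 and -0.13, -0.02, -0.03 and 0.02 in sIVs replicates 1, 3, 4 and 5. Here sIVs replicate 4 lay among the others, and the range was 0.30 with and without it. Both libraries numbered 1 were again lowest, and PBS replicate 5 highest. With the trend on length removed the order changed: sIVs replicate 4 was lowest at -0.18, below sIVs replicate 1 at -0.084 and PBS replicate 1 at -0.058, and the range was 0.39. Group means were 0.05 in PBS and -0.04 in sIVs libraries. The difference, sIVs minus PBS, was -0.091, a little less in size than the pooled SD of 0.098, and it was -0.095 without sIVs replicate 4.

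**Figure D4:**
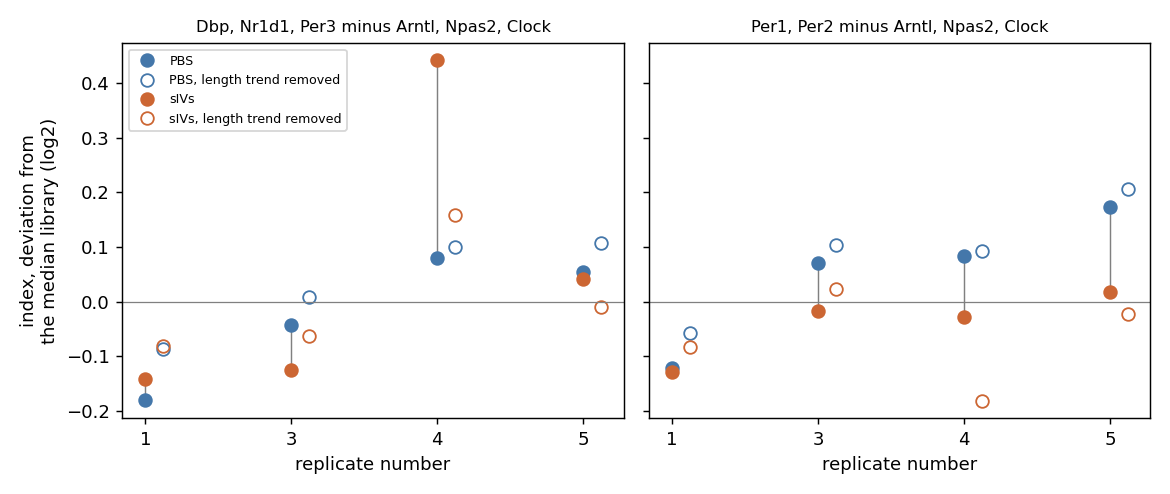
Phase indices per library (log2, deviation from the median library) by replicate number, from the outputs Dbp, Nr1d1 and Per3 (left) and from Per1 and Per2 (right), each minus Arntl, Npas2 and Clock; filled points are as measured, open points have the length trend removed and grey lines join same-numbered libraries. sIVs replicate 4 stands at 0.44 on the left and at -0.03 on the right, and both libraries numbered 1 lie below 0 in both panels.

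Whether same-numbered libraries varied together was tested over all genes with replicate number as a term beside group. Of the 10 clock genes 0 passed (lowest edgeR adjusted p = 0.494), against 0.0882% of all 17004 genes, and 0 of 10 had an unadjusted p under 0.05, against 9.29% of all genes. Clock had the smallest p (0.069 unadjusted by edgeR), followed by Arntl (0.097) and Dbp (0.106).

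The 4 number means of Arntl, as log2 deviations from the mean of all libraries, were 0.22, -0.05, 0.002 and -0.17 for numbers 1, 3, 4 and 5. Those of Dbp were -0.22, -0.13, 0.33 and 0.02, and those of Clock 0.26, 0.19, -0.35 and -0.10. For number 4 the libraries behind the mean differed: Dbp deviated from the median library by 0.03 in PBS replicate 4 and by 0.79 in sIVs replicate 4, and Clock by -0.11 and -0.84.

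Leaving out PBS replicate 4, sIVs replicate 4 alone stood for its number. Many genes of all kinds passed then, some clock genes among them, and these calls are not read as a result about the clock genes. That fit cannot tell an effect of number from the state of sIVs replicate 4, and no conclusion is drawn from it.

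Across the 10 clock genes, deviations from the group mean correlated between same-numbered libraries at r = 0.403 to 0.697 in all 4 pairs. Over the 12 pairs with different numbers r ran from -0.561 to 0.526 and was above 0 in 3. Deviations sum to 0 within each group, so positive same-number values by themselves push the others below 0, and the contrast is no test. These are descriptions over 10 genes that share their libraries, and the highest different-number pair lay within the range of the same-number pairs. Markers differed along with number too. The libraries numbered 5, where Arntl was lowest, stood apart in the sum of the ciliary body and lens list, whose 7 genes summed to 97.1 and 85.5 CPM there against 31.3 to 53.1 CPM elsewhere. Col9a1, at 60.4 and 54.5 CPM, and Optc were the largest parts. The lens crystallin genes of the list were nearly absent there, with 3 and 1 counts for Crygs and 0 for Cryaa and Cryba1. Optc, a gene of that list, passed for replicate number (edgeR adjusted p = 0.0114), at 31.7 and 24.6 CPM in the libraries numbered 5 and at most 3.49 CPM in the other 6. Gnat1 stood at 11068 and 11493 CPM in the libraries numbered 1 and at 6339 and 6906 CPM in those numbered 5, and the gliosis markers summed to 318 and 570 against 1331 and 1330 CPM. Of the gliosis genes 11 of 12 had an unadjusted p under 0.05 for replicate number in edgeR, against 9.29% of all genes, and none passed adjustment. Their part in the clock values was not tested.

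Pairs of clock genes were compared over the 8 libraries for the opposition that a difference in phase would give. Of 45 pairs, 1 passed a two-sided exact permutation test after Benjamini-Hochberg adjustment over the 45, the pair Clock and Dbp (Pearson r = -0.968, exact p = 0.000124, adjusted p = 0.00558; Spearman ρ = -0.952, exact p = 0.00114, adjusted p = 0.0513). Without the 2 libraries farthest from the median of Clock, sIVs replicates 4 and 5, r was -0.943, and with the length trend removed it was -0.482. Of all genes tested, 52.6% had an absolute r of at least 0.7 with Clock and 54.1% with Dbp, so a strong correlation with either was common.

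Arntl and Dbp, which alternate in a running clock, had r = -0.360 (exact permutation p = 0.415, adjusted p = 0.510; ρ = -0.690, exact p = 0.0694, adjusted p = 0.26). Without the 2 libraries farthest from the median of Arntl, those numbered 1, r was 0.0943 over a narrower range of Arntl. Without sIVs replicate 4 it was -0.813, and with the length trend removed 0.444. Arntl and Nr1d1, the gene of its repressor, had r = 0.269 (exact permutation p = 0.503, adjusted p = 0.596; ρ = 0.333, exact p = 0.428, adjusted p = 0.713), and -0.148 without the same 2 libraries.

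Pairs of outputs differed in sign. Dbp and Nr1d1 had r = -0.635 (exact permutation p = 0.0386, adjusted p = 0.145; ρ = -0.786, exact p = 0.0279, adjusted p = 0.18), with r = -0.674 without the 2 farthest libraries, -0.755 without sIVs replicate 4 and -0.714 with the length trend removed. Dbp and Per3 had r = -0.975 (exact permutation p = 0.00283, adjusted p = 0.0606; ρ = -0.810, exact p = 0.0218, adjusted p = 0.163), which became -0.605 without the 2 farthest libraries, -0.781 without sIVs replicate 4 and -0.319 with the trend removed. Per1 and Nr1d1 had r = 0.859 (exact permutation p = 0.00404, adjusted p = 0.0606; ρ = 0.905, exact p = 0.00456, adjusted p = 0.103), with r = 0.851 without the 2 farthest libraries and 0.783 with the trend removed. None of these 3 pairs passed after adjustment.

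**Figure D5:**
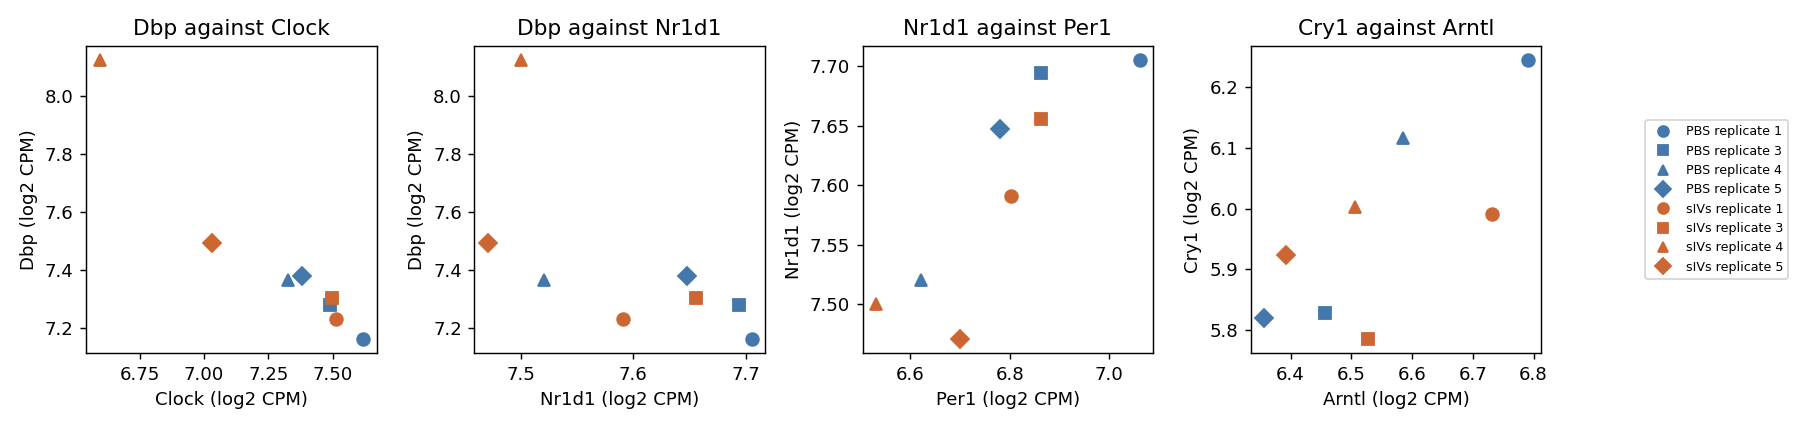
Log2 CPM of 4 pairs of clock genes in the 8 libraries, with colour for group and marker shape for replicate number. Dbp falls along Clock and Nr1d1, with sIVs replicate 4 at the end of the first, Per1 and Nr1d1 lie along a rising line, and Arntl and Cry1 (r = 0.742) are highest in PBS replicate 1.

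Arntl and Cry1 had r = 0.742 (exact permutation p = 0.0356, adjusted p = 0.145; ρ = 0.643, exact p = 0.0962, adjusted p = 0.333), with r = 0.548 without the 2 libraries numbered 1 and 0.759 without sIVs replicate 4.

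The protein-coding genes with a pattern most like that of Dbp, among 13778 with a mean of at least 1 CPM, were Tmem147, Eno1b, Bsg, Fam213b and Stx8, at r of 0.997 to 0.999 over 8 libraries and 0.969 to 0.989 without sIVs replicate 4. Bsg, which encodes basigin, stood at 687 to 941 CPM in 7 libraries and at 1630 CPM in sIVs replicate 4. The 5 genes of lowest r were Edem3, Kdm2a, Ranbp2, Nsd3 and Phc3, at -0.997 to -0.998. With the length trend removed Nsd3 moved to -0.272, and the other 9 stayed at an absolute r of at least 0.904. None of the 10 is among the clock partners listed here. Of 27 clock partners, Csnk2b, a subunit of casein kinase 2, ranked nearest to Dbp at r = 0.977, at place 402, and Tef, a close relative of Dbp, had r = 0.878, at place 2297. Without sIVs replicate 4 these were 0.763 and 0.813. Other partners ran against Dbp. Hlf, of the same list as Tef, had r = -0.742, at place 10229, and Prkaa2, the lowest of the 27, -0.966, at place 13034. With that library left out these 2 were at 0.406 and -0.663.

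Most like Arntl were Trip10, Xrcc2, Tepp, Slc1a7 and Slc25a25, at r of 0.971 to 0.990 over 8 libraries. With the length trend removed Slc25a25 and Xrcc2 were at 0.982 and 0.939, and Trip10, Slc1a7 and Tepp at 0.647, 0.627 and 0.488. Least like it were Abhd4, Ccr2, Cavin1, C3 and Lcp1, at -0.984 to -0.990, and at -0.555 for Lcp1 to -0.863 for Abhd4 with the trend removed. C3, a complement gene, stood at 2.12 and 4.94 CPM in the libraries numbered 1 and at 73.7 and 44.3 CPM in those numbered 5, where Arntl was lowest. Ccr2 and Lcp1, genes of leukocytes, ran the same way, with Lcp1 at 1.97 and 2.79 against 17.5 and 16.6 CPM.

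Of 13 further genes of the loop, 0 passed for sIVs against PBS, with 7 positive and 6 negative log2 differences and a median of 0.03 (edgeR, lowest adjusted p = 0.810). Nfil3, a repressor that competes with DBP for D-boxes, had the smallest p, at 0.23 ± 0.19 (SE) and 0.06 without sIVs replicate 4, with 13.9 to 19.8 CPM in PBS, 16.5 to 19.2 CPM in 3 sIVs libraries and 26.9 CPM in sIVs replicate 4. Timeless, named after a fly clock gene, had -0.18 ± 0.16 (SE), and -0.22 without sIVs replicate 4. Nr1d2, the second REV-ERB gene, stood at 246 to 274 CPM in 7 libraries and 181 CPM in sIVs replicate 4. Tef, an output like Dbp, stood at 349 to 387 CPM, highest in the same library. Hlf was lowest there, at 217 CPM against 251 to 288 CPM in the other 7.

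Of 14 kinases, ubiquitin ligases and other enzymes that act on clock proteins, 0 passed, with 3 positive and 11 negative log2 differences and a median of -0.04 (edgeR, lowest adjusted p = 0.810). Usp2, a deubiquitinase gene under clock control, had the smallest p, at 0.29 ± 0.15 (SE) and 0.17 without sIVs replicate 4, with 166 to 231 CPM in PBS and 202 to 293 CPM in sIVs libraries. Fbxl21, which encodes a ligase subunit for CRY proteins, followed at -0.57 ± 0.34 (SE), and -0.33 without that library, with at most 4.69 CPM. The groups did not overlap for 1 of the 14, against 2.01% of all genes. It was Csnk2a1, at 101 to 107 CPM in PBS and 93.8 to 100.2 CPM in sIVs libraries, named after its values were seen. For replicate number 0 of the 27 partners passed (edgeR, lowest adjusted p = 0.494), and 0 of the 27 had an unadjusted p under 0.05 for number or for group. Rora and Bhlhe40 had the smallest p of the loop genes, and Btrc and Csnk2b of the enzymes (adjusted p = 0.494, 0.506, 0.494 and 0.494).

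Rhythmic outputs of the retina gave 6 tested genes of 10, of which 0 passed for group or number in edgeR and 1, Drd4, had an unadjusted p under 0.05, for number. Drd4, the dopamine D4 receptor gene of photoreceptors, stood at 372, 245, 384 and 247 CPM in PBS and 398, 304, 610 and 331 CPM in sIVs libraries. Numbers 1 and 4 were highest in PBS and in sIVs, with a replicate-number p of 0.00571 by edgeR that did not pass adjustment (adjusted p = 0.387). Adcy1, an adenylate cyclase gene acting on that pathway, stood at 510 to 647 CPM in PBS and 580.5 and 650 CPM in sIVs replicates 3 and 1, but at 367 and 234 CPM in sIVs replicates 5 and 4. It is a long gene, of 12522 bases.

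The melatonin genes were scarce. Aanat, the gene of the enzyme that makes the melatonin precursor, had 3 to 17 counts per library, the melatonin receptor gene Mtnr1a 0 to 11 counts, Mtnr1b 1 count in all libraries together and Asmt, the gene of the last step of synthesis, 0 counts in every library. Aanat was highest, at 17 counts, in sIVs replicate 4. All 4 fell below the filter on low counts and were not tested.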

How the data were processed

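The 8 retina libraries were made with poly(A) selection and a strand-marking protocol and read as 150 bp pairs, according to the labels' protocols. Raw counts for 54532 genes and FPKM values were deposited by the authors. Within each library the deposited FPKM equalled the counts per listed gene length and library total times a constant of 0.943 to 1.03. The submitters' processing notes name mm10. Aligner, counter and strand setting were not given in the sources used here. No column belonged to another sample.

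The clock genes, gene lists and tests were chosen with earlier results of these data known. filterByExpr kept 17004 genes. Counts were scaled with TMM and tested in R 4.3.3 by edgeR 4.0.16 (quasi-likelihood) for group alone, or for replicate number beside group, two-sided, with Benjamini-Hochberg adjustment over all genes. Standard errors are the absolute log2 difference divided by the square root of F, so intervals are approximate. Log2 CPM used a prior count of 2. Correlations had exact permutation tests in Python with scipy 1.17.1 installed. Alternatives used DESeq2 1.42.0, limma 3.58.1 on log2(FPKM + 1) and log2(FPKM + 0.1), limma-voom, other scaling and filters, a replicate block, and left-out libraries. The length trend was a loess curve (span 0.3) per library. Methods were tested on simulated data. Named genes were the 10 clock genes, the 2 partners of smallest p in each list and the 5 genes most and least like Dbp and Arntl, and list genes past the threshold. Nr1d2, Tef, Hlf, Prkaa2, Csnk2a1, Drd4, Adcy1, Gnat1 and the named light and glucocorticoid response genes were chosen after their values were seen. Pairs of libraries within a group differed by more than counting noise. A gene of the rod marker list is not reported here.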

Additional observations from a re-analysis of the deposited data

Results flagged for a closer look

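Of 24 sets of 4 libraries examined for a sample far from the others (10 clock genes and 2 phase indices in each group), 1 was singled out, about what chance gives at 1 in 20. It was Per2 in the PBS group, where PBS replicate 1 stood at 26.3 CPM and replicates 3, 4 and 5 at 33.7, 33.5 and 35.1 CPM. The gap from that library to its nearest neighbour took a share of 0.837 of the group's range on the log2 CPM scale. PBS replicate 1 also had the lowest summed gliosis and pigment epithelium markers, at 318 and 8.77 CPM, and their part in the Per2 value was not tested.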

How the results depend on the processing

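For sIVs against PBS, 0 genes passed in every setting run, with 588 genes at an unadjusted p under 0.05 under the replicate block, 322 by DESeq2 and 255 by edgeR, and the replicate block changed no call of a clock gene. Same-numbered libraries deviated together at r = 0.596, 0.0246, 0.227 and 0.514 over all genes for numbers 1, 3, 4 and 5, and 6 of 8 libraries correlated best with their own number. The main fit did not treat same-numbered libraries as paired because the labels do not say that the numbers mark shared animals or days. Of 170 log2 differences of clock genes under other settings, 159 kept their direction and none passed. Arntl turned to 0.054 with limma-voom weights, 0.089 without PBS replicate 1 and sIVs replicate 4, and 0.10 with the length trend removed, and ran from -0.082 to 0.071 with 1 library left out. Per1 turned to 0.014 with the weights and 0.032 without those 2 libraries, Per3 to 0.013 without them and 0.014 with the length trend removed, and Cry2 to 0.0048 and 0.053 in the same 2 settings. Under these settings 0 clock genes passed. Values of Nfil3, Timeless, Usp2 and Fbxl21 without sIVs replicate 4 were added after seeing the data, and these 4 kept their direction.

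The count of genes that passed for replicate number was 15, and 484 without the count filter, 461 with DESeq2, 4 with limma on log2(FPKM + 0.1), 634 without PBS replicate 1 and sIVs replicate 4, 23 with the length trend removed and 0 to 7414 with 1 library left out (0 without PBS replicate 1 or 5 or sIVs replicate 1 or 5, 7414 without PBS replicate 4, 967 without sIVs replicate 4). Those 15 genes were all highest in the libraries numbered 5 and hold no clock gene or partner. The range of the output index was 0.62, and 0.17 without Dbp, 0.39 without Clock, 0.25 with the length trend removed and 0.26 to 0.62 with 1 library left out. The count of pairs of clock genes that passed was 1, and 7 on log2(FPKM + 0.1) and 3 on deviations from the group mean. It was 2 with the length trend removed and 1 to 5 with 1 library left out (5 without PBS replicate 4). The pairs were not the same throughout. With the length trend removed Clock and Dbp had r = -0.482, and the strongest negative pair was Per2 and Cry2 (r = -0.949). The causes of these shifts were not tested. Depth limits Npas2 most, at 56 to 93 counts per library.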

Other observations

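Per1 also answers to neural activity and to glucocorticoids, so genes of both responses were read beside it. Of 12 light and activity response genes, 0 passed for group or number in edgeR (lowest adjusted p = 0.810 and 0.292), with 8 positive log2 differences and a median of 0.09. For group 0 of the 12 and for number 2, Ier2 and Junb, had an unadjusted p under 0.05, against 1.5% and 9.29% of all genes. Arc, an activity gene of at most 3.37 CPM, had the smallest group p, with a log2 difference of -0.58 ± 0.29 (SE) and -0.45 without sIVs replicate 4. Egr1, an immediate early gene, ranged from 32.1 CPM in sIVs replicate 4 to 108 CPM in PBS replicate 4, a wider spread than that of Per1, which was lowest in the same sIVs library and at 98.3 CPM in that PBS library. Junb stood at 31.1 and 37.6 CPM in the libraries numbered 1 and at 57.7 to 80.7 CPM in the other 6, with a replicate-number p of 0.00146 by edgeR (adjusted p = 0.292). Fos, another immediate early gene, stood at 21.9 to 38.9 CPM.

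Of 10 glucocorticoid response genes, Per1 among them, 0 passed for group or number in edgeR, with 5 positive and 5 negative log2 differences and a median of 0.01, and 0 had an unadjusted p under 0.05 in either test. In sIVs replicate 4 they went both ways: Tsc22d3, the GILZ gene, stood at 58.2 CPM against 30.4 to 39.3 CPM in the other 7 libraries, and Klf9, a transcription factor gene of that response, at 62.7 CPM against 117 to 140 CPM. Fkbp5, a chaperone gene induced through the glucocorticoid receptor, stood at 25.9 to 36.9 CPM in all 8.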
